A study of Danio rerio with 114 samples.

Results

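The last growth step of the zebrafish oocyte, from stage III (O3) to stages IV and V (O4), was described from 6 wild-type polyA+ libraries, 3 of O4 and 3 of O3, out of 114 libraries in the series. Both stages came from wild-type females of the TLAB strain (AB crossed with Tupfel longfin), whose ages are not given, and neither group carried a mutation or was treated. Ovaries had been taken from 3 females per genotype after purging, which enriches for early stages, and oocytes had been sorted by hand from their diameter and how much light they let through. O4 oocytes no longer let light through, and in O3 oocytes, which had begun to lose their clarity, the nucleus could still be seen. The stages stand for what the eye could separate, and no step that strips the surrounding follicle cells is described. As a check, 6 wild-type libraries of the same stages (3 of O4, 3 of O3) made by depletion of ribosomal RNA were used, and 6 polyA+ libraries of ski7-/- oocytes (3 of O4, 3 of O3), which carry a frameshifting deletion in the ski7-specific exon of hbs1l, gave the same step in other females. The rRNA-depleted and polyA+ libraries of a stage varied together by number, and they are treated here as a second measurement of the same oocytes and not as new animals.

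In the ovary each oocyte grows inside a follicle of granulosa cells and an outer layer of theca cells, which make sex steroids under the control of follicle-stimulating and luteinizing hormone. In stage III the oocyte takes up vitellogenin, the yolk precursor made by the liver, and in stage IV it becomes able to resume meiosis when luteinizing hormone acts on the follicle and a progestin acts on the oocyte. Nuclear transcription in the oocyte comes to rest late in growth, and the mRNA stored by then is used by the early embryo. Part of this stored mRNA is controlled by the length of its poly(A) tail, which also decides how well an mRNA is caught by polyA selection. In whole sorted oocytes, fewer cells of a type and less RNA per cell cannot be told apart.

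The 6 polyA+ libraries held 5827606 to 7554717 reads on genes in O4 and 7268565 to 25211477 reads in O3. The rRNA-depleted libraries held 2510501 to 9978582 reads in O4 and 2434791 to 9421607 reads in O3. The labelled tissue was checked against 12 oocyte markers, whose summed level lay between 8713 and 10809 CPM (reads on a gene, scaled to a fixed library total) in the O4 libraries and between 9617 and 11579 CPM in the O3 libraries. The 7 liver markers together stayed at or below 8.92 CPM in any of the 6 libraries. The oocyte histone gene h1m (ENSDARG00000102892) averaged 2546 ± 169 CPM in O4 and 2241 ± 302 CPM in O3 (SD, n = 3 each), and its groups overlapped. The hbs1l locus (ENSDARG00000036778), which also encodes ski7, had 16.6, 28.6 and 24.2 CPM in the 3 O4 libraries, against 16.6, 24.96 and 26.5 CPM in the 3 O3 libraries (log2 fold change 0.03 ± 0.23 (SE), edgeR adjusted p = 0.988). This count per gene cannot tell ski7 and hbs1l transcripts apart, so a change of ski7 mRNA alone was not measured.

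Far more genes rose than fell, and those that rose did so by larger factors. Of 9621 genes tested, 230 were higher in O4 (2.39% of those tested) and 47 were lower (0.489%) at an adjusted p under 0.05 in edgeR's quasi-likelihood test. Of the 230, 162 rose at least 2-fold and 22 at least 16-fold, whereas 9 of the 47 fell at least 2-fold and 2 at least 4-fold. The median log2 fold change was 1.74 among the risers and -0.59 among the fallers, beside -0.02 over all genes tested. Together the 230 risers made up 23608, 27469 and 35795 CPM in the O4 libraries, against 13937, 12436 and 13969.7 CPM in the O3 libraries, so that they filled a small part of either transcriptome. Of the risers, 76 were under 10 CPM in each O3 library and passed the expression filter through O4, another stage or mutant libraries. For those a rise was the only change that could be seen easily.

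Libraries of a genotype that share a number varied together, and the step was also fitted with the replicate number as a block. The labels do not say what a number stands for. Then 406 genes rose (4.22%) and 158 fell (1.64%), and 277 of the 277 genes called without the block were among them. When only the 6 wild-type O4 and O3 libraries entered the fit, without the spread of the other stages and of the mutant, 56 genes rose and 2 fell. The counts also rested on single libraries: without O4 replicate 3 they were 80 up and 4 down, without O3 replicate 2 101 and 15, without O3 replicate 3 152 and 24, without O4 replicate 2 165 and 14, and without O4 replicate 1 277 and 87. Of the 40 genes named here by a rule and called, 20 were called in each fit without 1 library that tested them, and none changed direction in any alternative. With the 6 libraries alone, 23 of the 40 calls were lost, those of the risers atf3, bmpr1bb, bmpr2, btg1, dusp1, f2, ldlra, lrp1, pabpc1b, pgr, wsb1 and zfp36l1 and of the fallers chst14, col4a2, dnajb1a, fstl3, gdf9, gja1, gsdf, pdia2, snrpa, tdrd5 and tfr1a. The risers insl3, slc39a4, phyhipl, ptgs2 and inha did not reach the filter in that fit and were not tested. Of all 277 calls 21 were not tested there.

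**Figure D1:**
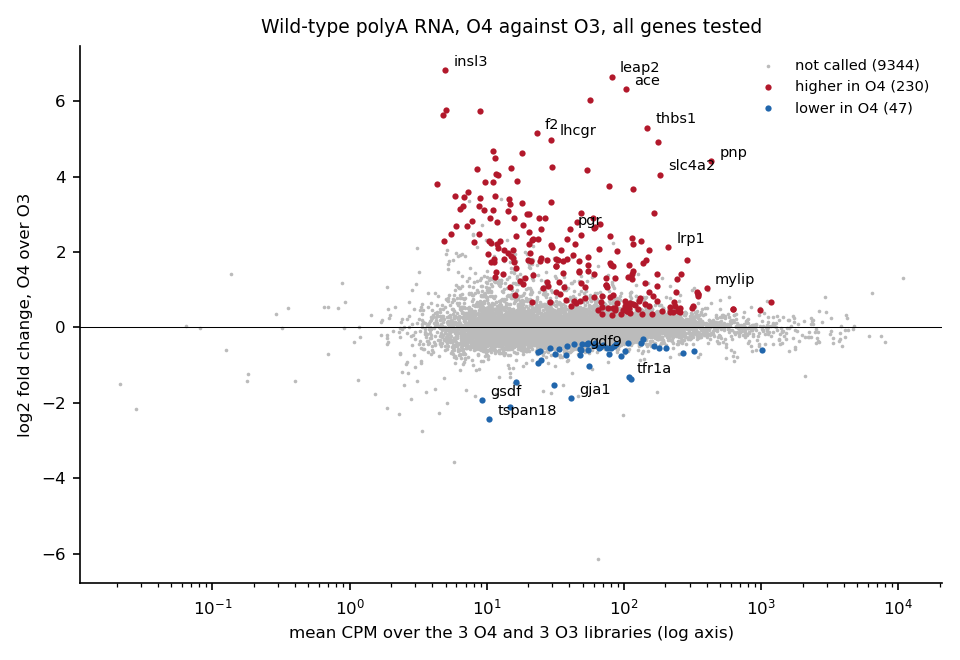
Log2 fold change of O4 over O3 (vertical axis) against the mean CPM of the 6 wild-type polyA+ libraries (horizontal log axis) for the 9621 genes tested, each point 1 gene. Red points, the 230 genes called higher in O4, reach 6.83 for insl3, and blue points, the 47 called lower, reach -2.42 for tspan18.

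The steepest risers were genes that were close to absent in O3. The relaxin-family hormone gene insl3 (ENSDARG00000035862) had 10.9, 8.46 and 10.0 CPM in the 3 O4 libraries, against 0.0396, 0 and 0.253 CPM in the 3 O3 libraries. With 3 reads in all of O3 and 198 in O4, the ratio of its summed counts per read sequenced was 146, with a 95% counting interval of 49.1 to 713 (edgeR adjusted p = 0.00329). The O4 libraries were close to each other, and O3 replicate 2 had no read. The peptide gene leap2 (ENSDARG00000104654), known in mammals as an antagonist of the ghrelin receptor, had 102, 209 and 171 CPM in the 3 O4 libraries, against 0.159, 4.32 and 0.631 CPM in the 3 O3 libraries (log2 fold change 6.65 ± 0.86 (SE), edgeR adjusted p = 1.72e-04). Angiotensin-converting enzyme, ace (ENSDARG00000079166), had 157, 206 and 245 CPM in the 3 O4 libraries, against 2.02, 3.44 and 2.27 CPM in the 3 O3 libraries (log2 fold change 6.31 ± 0.55 (SE), edgeR adjusted p = 1.09e-06). In both genes the lowest O4 library stood more than 10 times above the highest O3 library. The uncharacterized gene si:ch211-264f5.6 (ENSDARG00000079372) had 103, 76.2 and 153 CPM in the 3 O4 libraries, against 2.42, 1.23 and 1.14 CPM in the 3 O3 libraries (log2 fold change 6.02 ± 0.52 (SE), edgeR adjusted p = 1.09e-06).

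Others of the 10 steepest risers encode secreted clotting and matrix proteins and transport proteins. Thrombospondin 1, thbs1 (ENSDARG00000010785), a matrix protein that binds cells and growth factors, had 264, 201 and 398 CPM in the 3 O4 libraries, against 6.46, 11.6 and 3.54 CPM in the 3 O3 libraries (log2 fold change 5.30 ± 0.62 (SE), edgeR adjusted p = 5.03e-05). Prothrombin, f2 (ENSDARG00000036041), had 68.3, 26.1 and 40.3 CPM in the 3 O4 libraries, against 0.198, 3.09 and 0.631 CPM in the 3 O3 libraries (log2 fold change 5.15 ± 0.89 (SE), edgeR adjusted p = 0.00258), and its O4 values were less even. The zinc importer gene slc39a4 (ENSDARG00000059361) averaged 9.94 ± 4.61 CPM in O4 and 0.173 ± 0.235 CPM in O3, and fxyd2 (ENSDARG00000094561), a regulatory subunit of the sodium pump, 17.6 ± 6.72 CPM in O4 and 0.311 ± 0.204 CPM in O3 (SD, n = 3 each), with adjusted p of 0.00446 and 8.79e-04 in edgeR. The gene phyhipl (ENSDARG00000070498) averaged 9.34 ± 3.59 CPM in O4 and 0.167 ± 0.0369 CPM in O3 (edgeR adjusted p = 0.00504). Genes were named among the steepest only if all their O4 libraries lay above all O3 libraries, so that separation is part of the rule. It held for 228 of the 230 risers and for 10.4% of all genes tested.

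Among risers of at least 2-fold, the 5 with the highest CPM in O4, a scale that also grows with transcript length, came from purine, ion and ubiquitin metabolism and growth control. Purine nucleoside phosphorylase, pnp (ENSDARG00000078619), which frees bases from nucleosides in purine salvage, had 651, 619 and 1207 CPM in the 3 O4 libraries, against 60.3, 30.2 and 25.1 CPM in the 3 O3 libraries (log2 fold change 4.41 ± 0.42 (SE), edgeR adjusted p = 2.54e-06). The anion exchanger gene slc4a2 (ENSDARG00000028173), which swaps chloride for bicarbonate, had 341, 272 and 425 CPM in the 3 O4 libraries, against 28.9, 17.6 and 15.4 CPM in the 3 O3 libraries (log2 fold change 4.05 ± 0.36 (SE), edgeR adjusted p = 1.28e-06). The O3 level of both lay under 10% of the O4 level. The ubiquitin ligase adaptor gene wsb1 (ENSDARG00000021343) averaged 445 ± 184 CPM in O4 and 129 ± 29.7 CPM in O3 (adjusted p = 0.00343 in edgeR), and the anti-proliferation gene btg1 (ENSDARG00000027249) averaged 379 ± 92.6 CPM in O4 and 142 ± 44.3 CPM in O3 (SD, n = 3 each; adjusted p = 0.00787 in edgeR, lost without O4 replicate 3). The fifth was mylip (ENSDARG00000008859), an E3 ubiquitin ligase known to mark lipoprotein receptors for destruction, with 449, 549 and 618 CPM in the 3 O4 libraries, against 251, 266 and 264 CPM in the 3 O3 libraries (log2 fold change 1.05 ± 0.15 (SE), edgeR adjusted p = 3.62e-04). Its libraries were close within each stage, and it takes a place of its own in the comparison of library types.

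**Figure D2:**
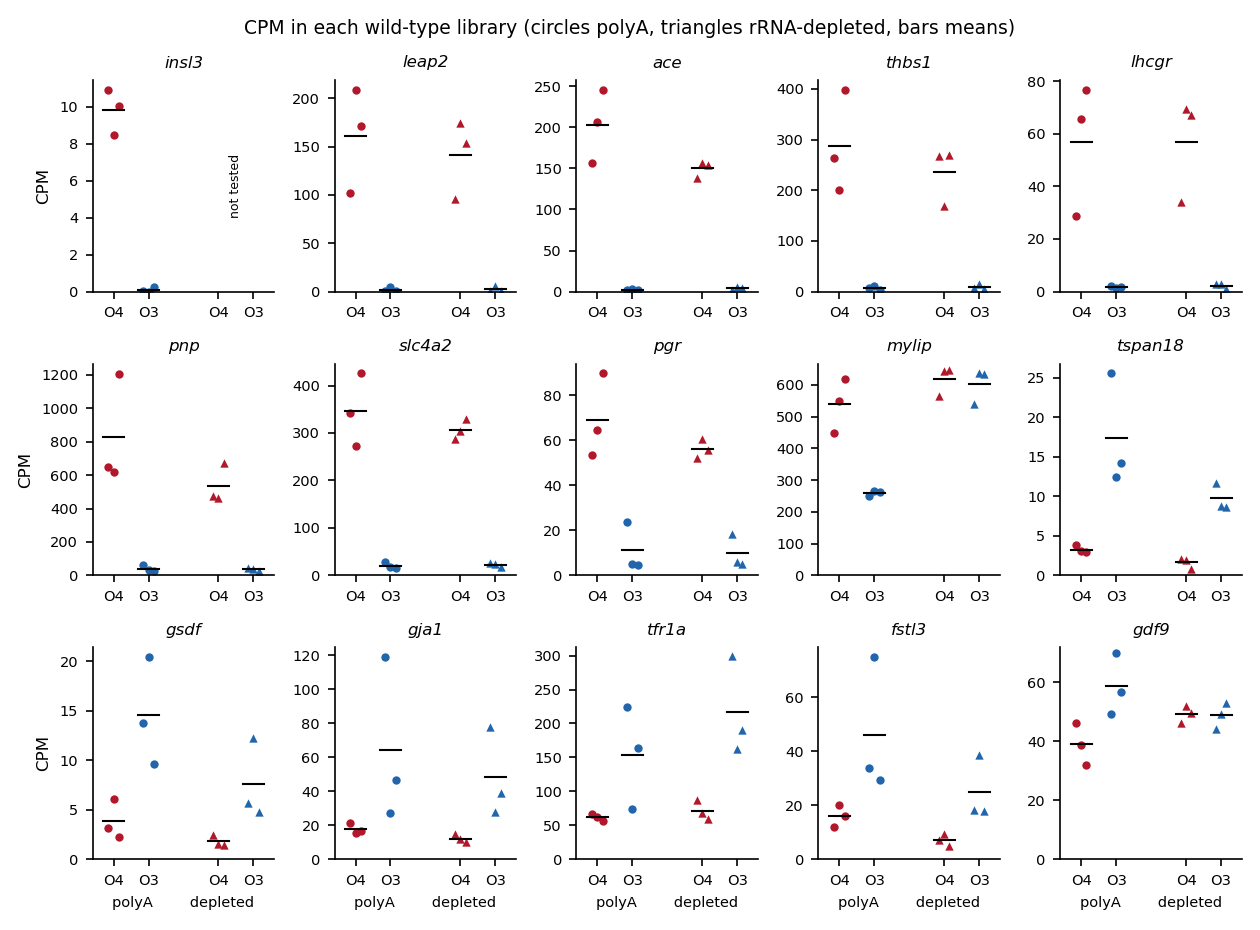
CPM (vertical axes, from 0) of 15 named genes in each wild-type library, with O4 in red left of O3 in blue, circles for polyA+ and triangles for rRNA-depleted libraries, and bars for the means of 3. The O4 circles of lhcgr (28.9, 65.5 and 76.6 CPM) stand above its O3 circles (2.30, 1.32 and 1.64 CPM), while for mylip the circles separate and the triangles overlap.

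The genes that fell at least 2-fold were 9, and 8 of them had their highest mean of the 4 oocyte stages in O3. The tetraspanin gene tspan18 (ENSDARG00000056656) had 3.79, 3.05 and 2.91 CPM in the 3 O4 libraries, against 25.5, 12.4 and 14.3 CPM in the 3 O3 libraries (log2 fold change -2.42 ± 0.37 (SE), edgeR adjusted p = 9.04e-04). Connexin 43, gja1 (ENSDARG00000041799), whose gap junctions couple follicle cells, had 21.0, 15.6 and 16.3 CPM in the 3 O4 libraries, against 119, 27.3 and 46.5 CPM in the 3 O3 libraries (log2 fold change -1.87 ± 0.41 (SE), edgeR adjusted p = 0.0138). The transferrin receptor gene tfr1a (ENSDARG00000101322), for iron uptake, had 66.5, 61.8 and 56.6 CPM in the 3 O4 libraries, against 224, 74.0 and 164 CPM in the 3 O3 libraries (log2 fold change -1.32 ± 0.28 (SE), edgeR adjusted p = 0.0108). For these 3 genes the O4 libraries were close together and the O3 libraries spread widely, with O3 replicate 1 highest and O3 replicate 2 lowest. Without O3 replicate 1 the calls of gja1 and tfr1a were lost, at log2 fold changes of -1.06 and -0.95; both calls were also lost without O4 replicate 3, and that of gja1 without O4 replicate 2.

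The other fallers of at least 2-fold were of mixed function. Gonadal soma-derived factor, gsdf (ENSDARG00000075301), a fish-specific member of the transforming growth factor family made by granulosa cells, had 3.16, 6.09 and 2.28 CPM in the 3 O4 libraries, against 13.8, 20.5 and 9.60 CPM in the 3 O3 libraries (log2 fold change -1.94 ± 0.43 (SE), edgeR adjusted p = 0.0150). The activin-binding protein gene fstl3 (ENSDARG00000025670) had 11.8, 20.1 and 15.96 CPM in the 3 O4 libraries, against 33.7, 74.9 and 29.3 CPM in the 3 O3 libraries (log2 fold change -1.52 ± 0.32 (SE), edgeR adjusted p = 0.0118). Both calls were lost without O4 replicate 3 and without O3 replicate 2. The others were pdia2 (ENSDARG00000018263), a protein disulfide isomerase, at 63.0 ± 34.4 CPM in O4 and 162 ± 82.7 CPM in O3 (adjusted p = 0.0328 in edgeR), the basement membrane collagen gene col4a2 (ENSDARG00000104110) at 36.4 ± 3.14 CPM in O4 and 74.3 ± 30.9 CPM in O3 (adjusted p = 0.0411 in edgeR), and fbrsl1 (ENSDARG00000058232) at 8.73 ± 1.41 CPM in O4 and 23.9 ± 0.848 CPM in O3 (SD, n = 3 each; adjusted p = 0.0343 in edgeR). The call of fbrsl1 was lost without any single library, that of pdia2 without O4 replicate 1 or 2 or O3 replicate 1, and that of col4a2 without any of them but O3 replicate 2. The folate receptor gene folr2 (ENSDARG00000102442), chosen after its values were seen because it completes the 9, was called at -2.12 (edgeR adjusted p = 0.0275), with 9.31, 2.88 and 4.43 CPM in O4, against 44.5, 6.09 and 21.3 CPM in O3, and its groups overlapped. Of the 47 fallers it was the 1 with overlapping groups, beside 9.12% of all genes tested whose O4 libraries lay below all O3 libraries.

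Marker genes of the follicle did not move as one group. Of 9 granulosa markers tested, 4 rose and 1 fell (median log2 fold change 0.78), beside 2.39% and 0.489% of all genes tested. The luteinizing hormone receptor gene lhcgr (ENSDARG00000026081) had 28.9, 65.5 and 76.6 CPM in the 3 O4 libraries, against 2.30, 1.32 and 1.64 CPM in the 3 O3 libraries (log2 fold change 4.98 ± 0.59 (SE), edgeR adjusted p = 5.03e-05). Inhibin alpha, inha (ENSDARG00000052433), which lowers release of follicle-stimulating hormone, had 9.15, 13.9 and 17.1 CPM in the 3 O4 libraries, against 4.28, 1.94 and 2.02 CPM in the 3 O3 libraries (log2 fold change 2.25 ± 0.45 (SE), edgeR adjusted p = 0.00856, lost without O4 replicate 3 and without O3 replicate 2). The other risers on the list were the nuclear receptor gene nr5a2 (ENSDARG00000100940, log2 fold change 1.83, edgeR adjusted p = 0.0442) and the keratin gene krt8 (ENSDARG00000058358, log2 fold change 1.62, edgeR adjusted p = 0.0327), and the faller was gsdf. In rRNA-depleted RNA 1 of 10 granulosa markers tested rose and 2 fell, beside 1.21% and 0.502% of all genes tested there. The aromatase gene cyp19a1 (ENSDARG00000041348), which makes estrogen, had 54.6, 31.3 and 63.5 CPM in the 3 O4 libraries, against 149.6, 26.4 and 58.1 CPM in the 3 O3 libraries and did not pass the test (adjusted p = 0.760 in edgeR). The estradiol-forming enzyme gene hsd17b1 (ENSDARG00000027469) had 18.8, 32.3 and 29.6 CPM in the 3 O4 libraries, against 69.8, 41.5 and 39.3 CPM in the 3 O3 libraries, with no overlap and an adjusted p of 0.136 in edgeR.

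Of 9 theca and steroidogenic markers tested, 3 rose and none fell (median log2 fold change 0.67), beside 2.39% and 0.489% of all genes tested. Beside insl3 these were hsd11b2 (ENSDARG00000001975), whose product inactivates cortisol, with 128, 89.6 and 99.3 CPM in the 3 O4 libraries, against 23.8, 23.4 and 27.5 CPM in the 3 O3 libraries (log2 fold change 2.08 ± 0.38 (SE), edgeR adjusted p = 0.00360), and hsd3b1 (ENSDARG00000069926, log2 fold change 1.81, edgeR adjusted p = 0.0452). The theca markers with the highest CPM, cyp11a1 (ENSDARG00000002347), which starts steroid synthesis from cholesterol, and cyp17a1 (ENSDARG00000033566), which commits it to androgens, were at log2 fold changes of 0.26 ± 0.35 and 0.06 ± 0.33 (SE) and did not pass the test. Each ranked its libraries in the same order in O4 and O3, with replicate 2 highest in each stage. Wild-type ovulated eggs, which have left their follicle, averaged 529 ± 442 CPM of cyp11a1 and 186 ± 58.5 CPM of cyp17a1 (SD, n = 3 each). In O1 the means were 173 and 136 CPM. The O4 and O3 values of both genes can therefore not be read as theca RNA alone. The reference pairs some symbols, such as cyp11a1 and cyp19a1, with the human-style name shared by duplicated zebrafish genes, so the identifier and not the symbol fixes the copy.

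Markers of other cell types gave the setting for these marker values. None of 8 stroma and smooth muscle, 1 endothelium, 3 blood and 1 epithelium markers tested passed the test. Of the 8 stroma and smooth muscle markers, 7 had a log2 fold change above 0 (median 0.35), and in ski7-/- oocytes 8 of 8 did (median 0.74). In rRNA-depleted RNA 4 of 9 tested lay above 0 (median -0.03). Of the 9 theca markers tested in polyA+ RNA 8 lay above 0, and in ski7-/- oocytes 9 of 9 did (median 1.39). Of the 9 granulosa markers tested 6 lay above 0, and in ski7-/- oocytes 7 of 9 did (median 1.28). In rRNA-depleted RNA 6 of 7 theca and 6 of 10 granulosa markers tested lay above 0. Of all genes tested, 47.1% lay above 0 in wild-type polyA+ RNA, 49.6% in rRNA-depleted RNA and 4978 of 9621 in ski7-/- oocytes. The smooth muscle actin gene acta2 (ENSDARG00000045180) had 94.2, 142 and 112 CPM in the 3 O4 libraries, against 100.4, 74.1 and 31.2 CPM in the 3 O3 libraries (log2 fold change 0.75 ± 0.42, SE), and myh11 (ENSDARG00000009782), cd74a (ENSDARG00000009087), cd74b (ENSDARG00000036628) and kdrl (ENSDARG00000105215) lay at log2 fold changes of 0.46, 0.36, -0.30 and 0.16. Summed over the list, stroma markers lay between 253 and 341 CPM in O4 and between 122 and 302 CPM in O3, granulosa markers between 235 and 416 CPM in O4 and between 164 and 364 CPM in O3, and theca markers between 527 and 734 CPM in O4 and between 329.5 and 542 CPM in O3. The ranges of the 2 stages overlapped for each of these sums. By replicate number, the theca sum was higher in O4 in each of the 3 pairs (527, 734 and 548 CPM in O4, against 410, 542 and 329.5 CPM in O3), and the granulosa and stroma sums were higher in O4 for replicates 2 and 3 and lower for replicate 1. The adhesion gene cdh1 (ENSDARG00000102750) had 238, 229.9 and 343 CPM in the 3 O4 libraries, against 113, 64.4 and 149 CPM in the 3 O3 libraries, with no overlap but an adjusted p of 0.128 in edgeR. In ovulated eggs, which have left their follicle, the theca sum was 228, 1089 and 834 CPM in the 3 wild-type libraries. The granulosa sum there was 2.84, 9.22 and 12.8 CPM. The theca sum is thus no measure of follicle tissue alone. The share of follicle tissue carried along with O4 and O3 oocytes was not measured, and its part in the risers was not tested.

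Genes of the ovulatory response were measured from a list of progestin and ovulation genes. Of 18 tested, 2 rose and none fell (median log2 fold change 0.21), beside 2.39% and 0.489% of all genes tested. The nuclear progestin receptor gene pgr (ENSDARG00000035966), which is needed for ovulation in zebrafish, had 53.3, 64.3 and 89.7 CPM in the 3 O4 libraries, against 23.8, 5.12 and 4.42 CPM in the 3 O3 libraries (log2 fold change 2.60 ± 0.60 (SE), edgeR adjusted p = 0.0183). Cyclooxygenase 2, ptgs2 (ENSDARG00000010276), which makes prostaglandins, had 5.68, 7.11 and 11.7 CPM in the 3 O4 libraries, against 2.101, 1.68 and 1.14 CPM in the 3 O3 libraries (log2 fold change 2.28 ± 0.40 (SE), edgeR adjusted p = 0.00261). In O3 the pgr level of replicate 1 was several times that of the other libraries, and its call was lost without O4 replicate 3 and without O3 replicates 2 or 3. With the replicate number as a block 5 of the 18 rose, pgr and ptgs2 with egfr, runx1 and timp2 (ENSDARG00000075261), beside 4.22% of all genes tested that rose and 1.64% that fell in that fit.

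Receptors and signals of oocyte growth moved in both directions. Of 20 growth factor and receptor genes tested, 2 rose and 2 fell, beside 2.39% and 0.489% of all genes tested. The median log2 fold change of the 20 was -0.02. The bone morphogenetic protein receptor genes bmpr2 (ENSDARG00000011941) and bmpr1bb (ENSDARG00000102742) rose: bmpr2 had 14.8, 21.0 and 23.18 CPM in the 3 O4 libraries, against 7.06, 2.38 and 3.03 CPM in the 3 O3 libraries (log2 fold change 2.22 ± 0.47 (SE), edgeR adjusted p = 0.0115), and bmpr1bb averaged 60.0 ± 19.4 CPM in O4 and 16.9 ± 5.89 CPM in O3 (SD, n = 3 each; adjusted p = 0.00844 in edgeR). Both calls were lost without O4 replicate 3 and without O3 replicate 2, and that of bmpr2 also without O3 replicate 3. Beside fstl3 the faller was gdf9 (ENSDARG00000003229), the growth factor by which the oocyte acts on its granulosa cells, with 46.2, 38.6 and 32.0 CPM in the 3 O4 libraries, against 49.4, 70.0 and 56.7 CPM in the 3 O3 libraries (log2 fold change -0.59 ± 0.14 (SE), edgeR adjusted p = 0.0265). Its drop was small, and the call was lost without O4 replicate 2 or 3 or O3 replicate 2 or 3. It was the 1 oocyte marker of 10 that was called.

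Genes of yolk and lipoprotein uptake were also measured from a list. Of 29 tested, 3 rose and none fell, beside 2.39% and 0.489% of all genes tested. In polyA+ RNA 25 of the 29 had a log2 fold change above 0, at a median of 0.17, beside 47.1% of all genes tested. In rRNA-depleted RNA 15 of the 29 lay above 0, at a median of 0.02, and 1 rose, beside 1.21% of all genes tested there. The lipoprotein receptor gene lrp1 (ENSDARG00000097827) had 167, 335 and 520.2 CPM in the 3 O4 libraries, against 107, 40.0 and 85.8 CPM in the 3 O3 libraries (log2 fold change 2.13 ± 0.41 (SE), edgeR adjusted p = 0.00535, lost without O4 replicate 3). The low-density lipoprotein receptor gene ldlra (ENSDARG00000029476) had 65.3, 46.4 and 42.2 CPM in the 3 O4 libraries, against 21.8, 11.5 and 10.6 CPM in the 3 O3 libraries (log2 fold change 1.80 ± 0.35 (SE), edgeR adjusted p = 0.00583). The third was npc2 (ENSDARG00000090912), which carries cholesterol out of the lysosome and was at 0.57 on the log2 scale with an adjusted p of 0.0194 in edgeR. No call fell on the 16 genes for subunits of the V-ATPase, the proton pump of yolk granules and lysosomes (median log2 fold change -0.05).

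The list of tail-length and translation control held 56 tested genes (median log2 fold change 0.02). Of these 3 rose and none fell, beside 2.39% and 0.489% of all genes tested. The poly(A)-binding protein gene pabpc1b (ENSDARG00000021140) had 36.5, 101 and 111 CPM in the 3 O4 libraries, against 33.1, 26.5 and 19.1 CPM in the 3 O3 libraries (log2 fold change 1.66 ± 0.37 (SE), edgeR adjusted p = 0.0146). The mRNA decay factor gene zfp36l1 (ENSDARG00000021443), which binds AU-rich elements, had 99.8, 129 and 150.5 CPM in the 3 O4 libraries, against 44.6, 58.8 and 19.7 CPM in the 3 O3 libraries (log2 fold change 1.62 ± 0.38 (SE), edgeR adjusted p = 0.0230). The third was pabpc1a (ENSDARG00000017219), with a log2 change of 0.47 (edgeR adjusted p = 0.0348). With the replicate number as a block parn, a deadenylase gene, and tob1b, whose product recruits deadenylases, were called higher as well, which made 5 of the 56, beside 4.22% of all genes tested. For pabpc1b and zfp36l1 O4 replicate 1 lay lowest of the O4 libraries, and the calls were lost without O4 replicate 2 or 3, without O3 replicate 3 and, for pabpc1b, without O3 replicate 2 or, for zfp36l1, without O3 replicate 1.

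Few genes of the machinery stored for the embryo were called, beside 2.39% of all genes tested that rose and 0.489% that fell. No gene was called among 27 maturation kinases and cyclins (median log2 fold change -0.03), 6 meiotic prophase genes (0.04), 24 maternal axis and genome activation factors (-0.06), 39 DNA replication genes (-0.01) or 22 fertilization and egg activation genes (0.05). The same held for 79 cytoplasmic ribosomal protein genes (0.02), 63 mitochondrial ribosomal protein genes (-0.17), 47 proteasome genes (-0.06), 73 nuclear oxidative phosphorylation genes (-0.02), 33 RNA polymerase II and Mediator genes (0.05) and 12 histone genes (-0.02). Of 42 spliceosome genes 1 fell, snrpa (ENSDARG00000018890) of the U1 particle, at -0.54 ± 0.14 (SE; adjusted p = 0.0451 in edgeR), and of 24 germ plasm and piRNA genes 1 fell, tdrd5 (ENSDARG00000071450), a Tudor protein of the piRNA pathway, at -0.40 ± 0.10 (SE; adjusted p = 0.0265 in edgeR). Both of these calls were lost without O4 replicate 2 or 3 or O3 replicate 2 or 3, and that of tdrd5 also without O3 replicate 1. With the replicate number as a block 3 spliceosome and 3 germ plasm genes fell, among them dnd1, which protects germ cell mRNAs, beside 1.64% of all genes tested that fell and 4.22% that rose in that fit. The block also called ccnb3 higher and ccna2 lower of the cyclins, and rrm2 (ENSDARG00000020711) higher and cdt1 lower of the replication genes.

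The 19 egg coat genes tested, which encode the zona pellucida proteins of the chorion, all had log2 fold changes below 0, between -0.78 and -0.14 with a median of -0.41, and none was called. Many of them are near-identical copies whose reads the counting could split or drop, so they are not independent of each other. The zona pellucida gene zp3b (ENSDARG00000039828), had 2612, 2119 and 1703 CPM in the 3 O4 libraries, against 3217, 2940.4 and 2382 CPM in the 3 O3 libraries (log2 fold change -0.41 ± 0.25, SE), and its groups overlapped. Summed over the list and scaled by library size only, the level was 19277 to 29595 CPM in O4 and 30114 to 38209 CPM in O3. By that scaling the ranges did not overlap, by a narrow margin. TMM-scaled sums, with factors of 1.0006 to 1.0894 in the 6 libraries, were not computed. In rRNA-depleted RNA all 19 again lay below 0, with a median of -0.37 and no call, and the sum was 9000.4 to 16120 CPM in O4 and 16285 to 19270.2 CPM in O3. In ski7-/- oocytes 17 of the 19 lay below 0, with a median of -0.14. The 13 mitochondrially encoded genes, of which 11 had a log2 fold change above 0, had a median of 0.42, and none was called.

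**Figure D3:**
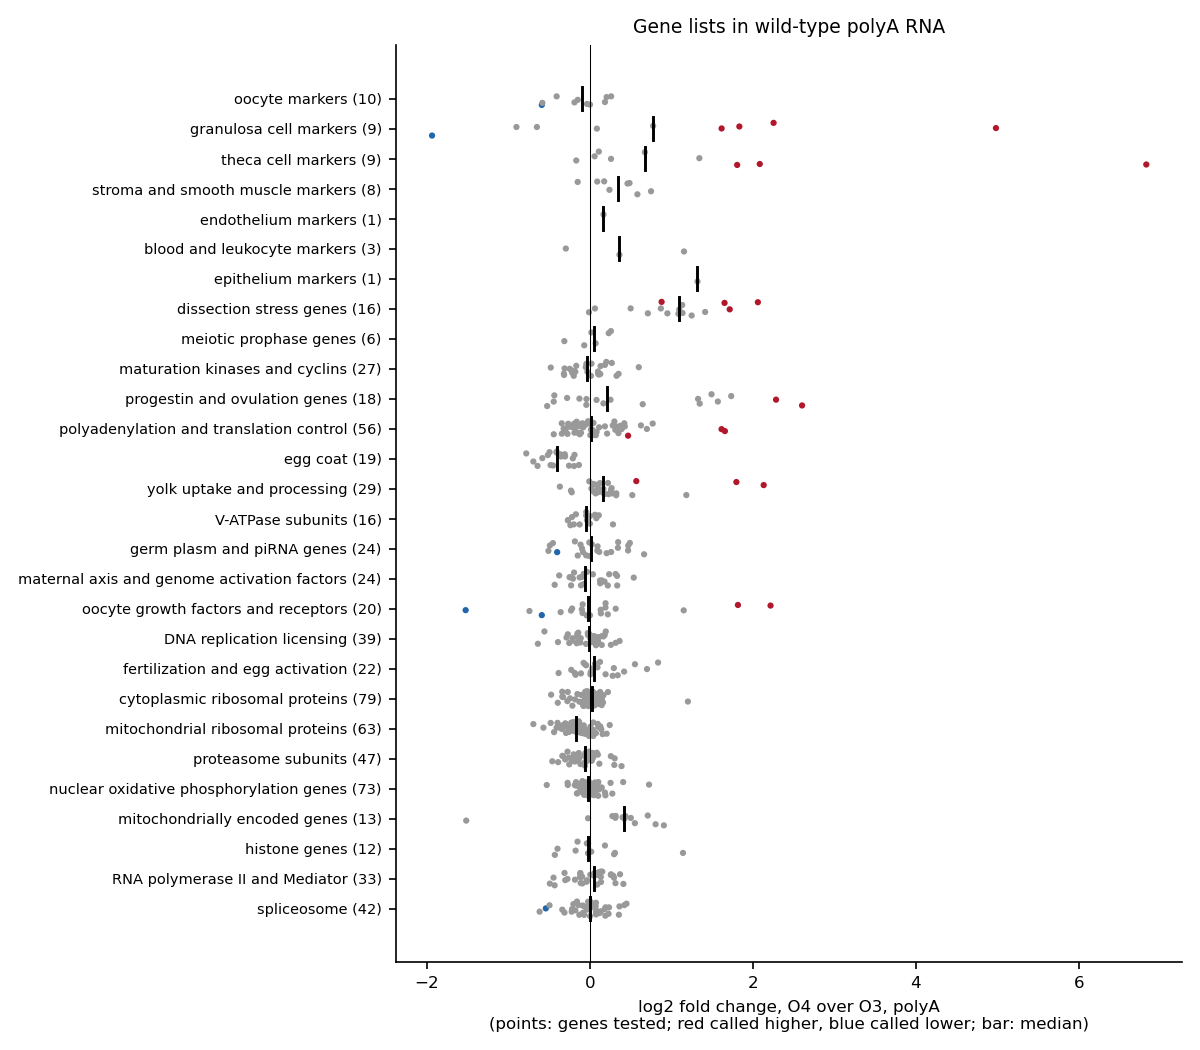
Log2 fold change of O4 over O3 in wild-type polyA+ RNA (horizontal axis) for the genes tested of each list (1 row per list, number tested in brackets), with points for genes, bars for medians, red for genes called higher in O4 and blue for genes called lower. The 19 egg coat genes lie left of 0 with a median of -0.41, and the 16 dissection stress genes have a median of 1.09.

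Genes known for a fast response to handling of tissue lay mostly above 0 in the O4 to O3 contrast. Of 16 dissection stress genes tested 4 rose and none fell, beside 2.39% and 0.489% of all genes tested. Their median log2 fold change was 1.09, and 15 of the 16 lay above 0, beside 47.1% of all genes tested. Scaled by library size only, the summed level of the list was 1939 to 3024 CPM in O4 and 1391 to 1705 CPM in O3, with no overlap. The stress transcription factor gene atf3 (ENSDARG00000007823) had 63.0, 153 and 146 CPM in the 3 O4 libraries, against 34.7, 46.4 and 29.0 CPM in the 3 O3 libraries (log2 fold change 1.72 ± 0.36 (SE), edgeR adjusted p = 0.0114, lost without O4 replicate 2 or 3 or O3 replicate 3), and dusp1 (ENSDARG00000100515), which inactivates MAP kinases, had 343, 444 and 545 CPM in the 3 O4 libraries, against 266, 247 and 212 CPM in the 3 O3 libraries (log2 fold change 0.88 ± 0.15 (SE), edgeR adjusted p = 0.00257). The other called members were jun (ENSDARG00000043531, log2 fold change 1.65, edgeR adjusted p = 0.0343) and egr3 (ENSDARG00000089156, log2 fold change 2.06, edgeR adjusted p = 0.0399). With the replicate number as a block 8 of the 16 rose, beside 4.22% of all genes tested, and in ski7-/- oocytes without the block 12 did, beside 3.17%. In the rRNA-depleted libraries none of 14 tested was called (median log2 fold change 0.64). With the block 6 rose there, beside 2.69% of all genes tested. The time that O4 and O3 oocytes spent in sorting medium is not known here, and the part of these genes in the other risers was not tested.

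The rRNA-depleted libraries, which keep mRNA whatever its tail, gave 123 genes higher in O4 (1.21% of 10158 tested) and 51 lower (0.502%) in the same kind of fit, and 273 (2.69%) and 194 (1.91%) with the replicate number as a block. Of the polyA+ risers, 102 were also called higher here, which is 44.3% of the polyA+ risers and 82.9% of the rRNA-depleted ones. Of the fallers 9 were shared, 19.1% of the polyA+ list and 17.6% of the rRNA-depleted list. No gene was called in opposite directions. Without O3 replicate 2 the rRNA-depleted counts were 54 higher and 20 lower, without O3 replicate 3 61 and 20, without O4 replicate 3 64 and 14, without O4 replicate 2 74 and 21, and without O4 replicate 1 137 and 90.

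Large changes in polyA+ RNA were also seen in rRNA-depleted RNA. Of the 162 risers of at least 2-fold, 154 were tested in the rRNA-depleted libraries. Of these, 150 had a log2 fold change above 0 there, beside 49.6% of all genes tested there, and 96 were called, beside 1.21%. The median log2 fold change was 1.67, beside 2.21 in polyA+ RNA. A gene near 0 in O3 passed the filter there through O4 or other libraries, which in part fixes its direction. Of the 154, 9 lay within 0.2 of 0 in rRNA-depleted RNA. In rRNA-depleted RNA leap2 had 96.1, 174 and 154 CPM in the 3 O4 libraries, against 0.406, 5.46 and 0.791 CPM in the 3 O3 libraries (log2 fold change 5.85, edgeR adjusted p = 6.65e-04). The luteinizing hormone receptor gene lhcgr had 33.9, 69.3 and 67.3 CPM in the 3 O4 libraries, against 2.95, 2.85 and 1.19 CPM in the 3 O3 libraries (log2 fold change 4.49, edgeR adjusted p = 3.72e-05), and pgr 52.1, 60.7 and 55.8 CPM in the 3 O4 libraries, against 18.4, 5.83 and 5.14 CPM in the 3 O3 libraries (log2 fold change 2.46, edgeR adjusted p = 0.0186). These 3 genes kept their groups apart in both library types, as 6.12% of all genes tested in rRNA-depleted RNA did with O4 above O3 and 5.55% with O4 below O3. All 8 of the 9 strong fallers that were tested here were called lower as well, among them tspan18 (log2 fold change -2.72), gsdf (-2.15), gja1 (-2.02) and tfr1a (-1.62). The granulosa marker hsd17b1, which missed the threshold in polyA+ RNA, had 11.5, 24.7 and 17.4 CPM in the 3 O4 libraries, against 67.8, 48.4 and 40.7 CPM in the 3 O3 libraries (log2 fold change -1.57, edgeR adjusted p = 0.0244), and cdh1 was called higher at 0.47 (edgeR adjusted p = 0.0148).

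Small changes in polyA+ RNA were mostly near 0 and not called in rRNA-depleted RNA. Of the 68 risers of under 2-fold, all tested in both, 6 were called in rRNA-depleted RNA, beside 1.21% of all genes tested there. On the log2 scale 53 lay within 0.2 of 0, with a median of 0.07 beside 0.58 in polyA+ RNA. Of the 38 fallers of under 2-fold, 1 was called, beside 0.502% of all genes tested there, and 33 lay within 0.2 of 0. The share of all genes within 0.2 of 0 was not computed. The direction was the same in both library types for 54 of the 68 risers and 22 of the 38 fallers. It was the same for 58.9% of all genes tested in both. Both sets were chosen by their polyA+ values, and the split at 2-fold was made after the values were seen. The gene mylip, past 2-fold in polyA+ RNA, had 565, 643 and 647 CPM in the 3 O4 libraries, against 538, 638 and 636 CPM in the 3 O3 libraries in rRNA-depleted RNA (log2 fold change 0.03 ± 0.08, SE). The heat shock cochaperone gene dnajb1a (ENSDARG00000099383) had 17.0, 14.9 and 16.6 CPM in the 3 O4 libraries, against 27.0, 32.6 and 33.8 CPM in the 3 O3 libraries in polyA+ RNA (log2 fold change -0.94) and averaged 36.1 ± 5.69 CPM in O4 and 36.4 ± 8.64 CPM in O3 in rRNA-depleted RNA (SD, n = 3 each; log2 fold change 0.02). Likewise gdf9 was at 0.02, dusp1 at 0.21, snrpa at -0.09, tdrd5 at -0.11 and chst14 (ENSDARG00000043011), a dermatan sulfotransferase gene with a polyA+ log2 fold change of -0.86, at -0.15 in rRNA-depleted RNA. None of these 7 was called there. The polyA+ call of chst14 was lost without O4 replicate 3 and without O3 replicate 2.

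**Figure D4:**
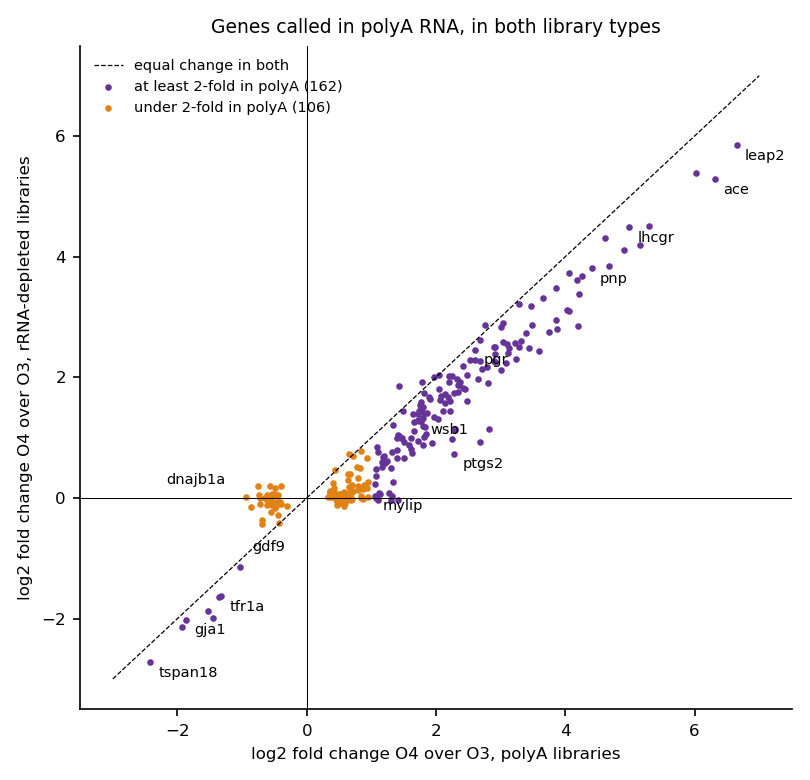
Log2 fold change of O4 over O3 in polyA+ (horizontal axis) and in rRNA-depleted libraries (vertical axis) for the 268 genes called in polyA+ RNA and tested in both, with a dashed line of equal change. Purple points, at least 2-fold in polyA+ RNA, mostly lie near or below the line from tspan18 to leap2, with 9 risers, mylip among them, within 0.2 of 0 on the vertical axis, and most orange points, under 2-fold, lie near 0 on the vertical axis.

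A direct test of the difference between library types gave no call in the fit used throughout. In edgeR, 0 of 9757 genes had an adjusted p under 0.05 in either direction (0% called), with 584 at an unadjusted p under 0.05. When libraries of the same stage and number were paired, 0 were called as well, but 1431 had an unadjusted p under 0.05 in edgeR. DESeq2's Wald test called 24, of which 18 were more positive in polyA+ RNA and 6 more negative. For mylip the difference in log2 fold change was 1.02 ± 0.18 (SE), with an adjusted p of 0.429 in edgeR, 0.0536 in the paired fit and 1.06e-04 in DESeq2. Chosen after their values were seen, the heterochromatin gene cbx3 (ENSDARG00000003860, 1.06 ± 0.16) and the DNA methylation cofactor gene uhrf1 (ENSDARG00000103409, 1.08 ± 0.19) stood beside it, with DESeq2 adjusted p of 7.40e-06 and 1.62e-04 and edgeR adjusted p of 0.285 and 0.429. For dnajb1a it was -0.95 ± 0.27 and for gdf9 -0.60 ± 0.23, and neither was called by edgeR or DESeq2. The 3 genes were thus called by 1 of the 2 tools.

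Earlier stages and the ovulated egg place this step in the wild-type course. Of the 230 risers, 229 had their highest mean of the 4 oocyte stages in O4, and of the 47 fallers 36 had their lowest there, 23 with their highest in O3, 11 in O2 and 13 in O1. The receptor gene lhcgr averaged 0.319 CPM in O1, 0.262 in O2, 1.75 in O3 and 57.0 in O4, and pgr 1.52, 1.55, 11.1 and 69.1 CPM in the same order. Both genes were above their O2 mean in O3, for pgr mainly through replicate 1. The gap junction gene gja1 averaged 3.15 CPM in O1, 11.9 in O2, 64.3 in O3 and 17.6 in O4, and tfr1a 21.7, 37.0, 154 and 61.6 CPM, each with a peak in O3. For gdf9 the means were 65.8 CPM in O1, 63.9 in O2, 58.7 in O3 and 39.0 in O4. The choice of these genes by their O4 and O3 values in part fixes these positions.

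Unactivated eggs had been squeezed from females after ovulation, when the egg has left its follicle, and 3 wild-type polyA+ libraries of them (10926752, 24608307 and 47207230 reads) were set beside O4 by CPM per library size, without a test (the O4 means of single genes are TMM-scaled as before). Of the 162 risers of at least 2-fold, 76 averaged under 1 CPM in eggs and 108 under 10% of their O4 level, while 12 were above their O4 level. Of the 68 risers of under 2-fold, 0 averaged under 1 CPM in eggs, 2 lay under 10% of O4 and 46 above their O4 level. Over all 9621 genes tested, 11.7% averaged under 1 CPM in eggs, 24.3% lay under 10% of O4 and 3120 genes lay above their O4 level. In eggs leap2 and inha had no read, against a floor of 0.0363 CPM for 3 reads in all, and lhcgr and pgr had 1 read each. The lipoprotein receptor gene lrp1 averaged 0.663 CPM in eggs and 341 CPM in O4, and slc4a2 1.02 CPM in eggs and 346 CPM in O4. In contrast mylip averaged 2594 ± 248 CPM in eggs (SD, n = 3), against 539 ± 84.7 CPM in O4, and dusp1 1029 CPM in eggs and 444 CPM in O4.

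**Figure D5:**
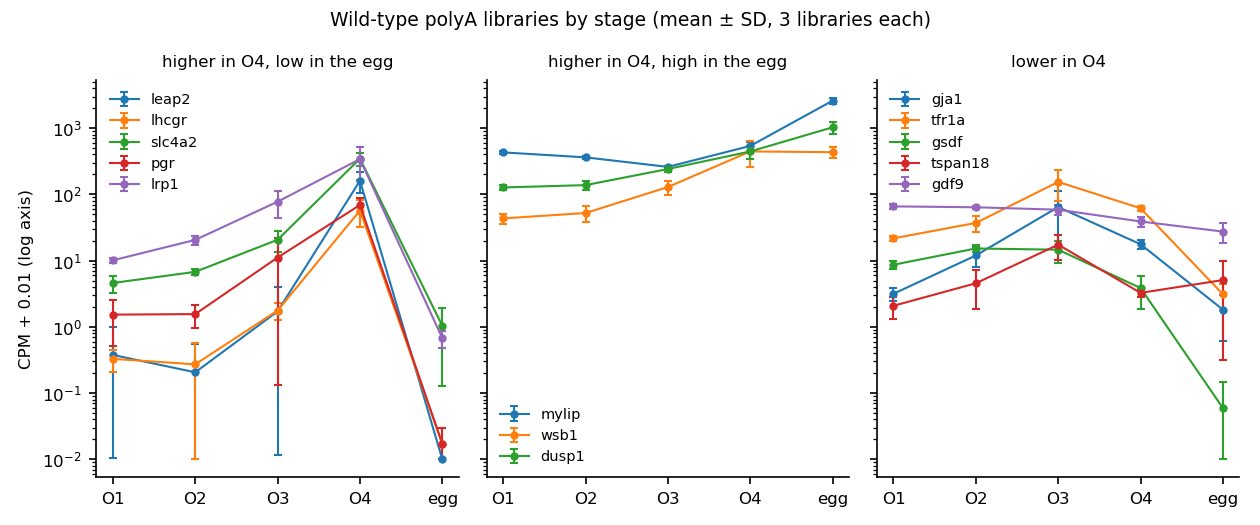
Mean CPM + 0.01 (vertical log axis) of named genes in wild-type polyA+ libraries of O1, O2, O3, O4 and unactivated eggs (3 libraries each), with SD bars that stop at 0 CPM. The left panel shows risers that are low in eggs (1.02 CPM for slc4a2), the middle panel risers that stay high in eggs (2594 CPM for mylip), and the right panel fallers, of which gja1 and tfr1a peak in O3.

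The same step in ski7-/- oocytes gave 305 genes higher in O4 (3.17% of 9621) and 32 lower (0.333%), and 483 and 101 with the replicate number as a block. Each of the 230 wild-type risers had a log2 fold change above 0 in the mutant and 177 were called there, 77.0% of the wild-type risers and 58.0% of the mutant ones. Each of the 47 wild-type fallers lay below 0 in the mutant and 13 were called, 27.7% of the wild-type and 40.6% of the mutant list. Over all 9621 genes tested, 4978 lay above 0 in the mutant and 4639 below 0. No library is shared between the genotypes, though 1 fit estimated their spread. The filter counted libraries of both genotypes. Risers such as insl3, at 22.3 CPM in mutant O4 replicate 3, could thus pass with the help of mutant O4 libraries, which in part fixes their direction there. In the mutant lhcgr had 28.4, 34.8 and 109.9 CPM in O4, against 0.872, 0.293 and 0.598 CPM in O3 (log2 fold change 6.56, edgeR adjusted p = 7.39e-06), and pgr 63.5, 42.8 and 87.3 CPM in O4, against 6.11, 3.81 and 1.11 CPM in O3 (log2 fold change 4.16, edgeR adjusted p = 8.86e-04). Fallers that did not pass the test in the mutant were tspan18 at -0.91, gja1 at -1.05 and fstl3 at -1.04, while gsdf was called at -2.04 (edgeR adjusted p = 0.00777). A difference between genotypes was tested as the interaction of genotype and stage, which called 0 of 9621 genes in edgeR (0% called; 79 at an unadjusted p under 0.05), 1 with the replicate number as a block and 2 in DESeq2. For tspan18 that difference was -1.51 on the log2 scale (wild type minus mutant, unadjusted p = 0.00632 in edgeR, and not called after adjustment).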

How the data were processed

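Oocytes of wild-type and ski7-/- zebrafish were sequenced after polyA selection or depletion of ribosomal RNA. The values are deposited counts of reads per gene, which the authors made by trimming, alignment with HISAT2 2.1.0 to GRCz11 and counting of uniquely aligned reads with HTSeq 0.9.1 (submitters' processing notes and the study's methods), so reads shared by near-identical copies are missing. Gene symbols came from a table of Ensembl identifiers and matched 92.1% of 31466 identifiers.

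Counts were fitted with edgeR 4.0.16 (R 4.3.3; limma 3.58.1) by quasi-likelihood over the 24 libraries of oogenesis of 1 library type (2 genotypes, 4 stages, 3 libraries each), with TMM scaling, after genes that did not reach 10 CPM in 3 or more libraries were dropped. Calls had a Benjamini-Hochberg adjusted p under 0.05 over all genes tested. CPM are TMM-scaled. Library type was compared as an interaction in 12 libraries, and genotype as an interaction in the polyA fit. The script was tested on simulated data.

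Within wild type, deviations of O4 and O3 libraries with the same number correlated at 0.598 to 0.719 in polyA+ and 0.675 to 0.760 in rRNA-depleted RNA. Those with different numbers correlated at -0.445 to -0.184 in polyA+ RNA and at -0.483 to -0.199 in rRNA-depleted RNA. Deviations were taken from the mean of the 3 libraries of a group and so sum to 0 for each gene. Correlations above 0 for the same number thus push the others below 0, and the negative values are no separate evidence of pairing. The methods give 3 females per genotype but do not tie the numbers to them. All 3 pairs with the same number were above 0.1, so the number was used as a block in a second fit. No libraries agreed within sampling noise.

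Genes were named by rule: the 10 genes up and the 10 down with the largest change and no overlap of libraries, the 5 up and the 5 down with the highest CPM among changes of at least 2-fold, of each list up to 2 called members per direction and of marker lists the 2 with the highest CPM, and hbs1l. Other genes named were chosen after their values were seen. The groups of genes and the contrast were chosen with earlier results of these data known. Alternatives were other scalings, filters, sample sets, a block, thinned counts, DESeq2 1.42.0, limma-voom with libraries of the same number taken as correlated, and each library left out. The counting error of a ratio is a 95% interval and covers counting only. No sequence or coordinates are given.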

Additional observations from a re-analysis of the deposited data

How the results depend on the processing

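Scaling by DESeq2 size factors or by library size kept the polyA+ counts within 1.5 times, at 240 and 190 genes up and 42 and 61 down, and moved the median of all genes to -0.00090 and -0.045. In polyA+ RNA DESeq2 called 384 genes up and 103 down, limma-voom with a correlation within replicate numbers 447 and 127, and the absence of a filter 20 down. The 6 wild-type O4 and O3 libraries alone gave 56 up and 2 down in polyA+ RNA and 37 and 1 in rRNA-depleted RNA, where the 12 wild-type libraries gave 74 and 28, thinning to the smallest library 18 down, DESeq2 188 and 81, and limma-voom 350 and 272. Leaving out 1 library at a time gave 80 to 277 up and 4 to 87 down in polyA+ RNA, and 54 to 137 up and 14 to 90 down in rRNA-depleted RNA. The fit without 1 library assumes that the remaining pair varies like the other groups. With the replicate block the counts were 406 up and 158 down in polyA+ RNA, 273 and 194 in rRNA-depleted RNA, 483 and 101 in ski7-/- oocytes, and 1 for the interaction of genotype and stage, and the block changed the call of no gene named by the rule. In ski7-/- oocytes DESeq2 called 459 and 96, with 2 interactions. For the difference between library types DESeq2 called 18 more positive and 6 more negative in polyA+ RNA, against 0 in each other alternative. Of 879 alternative values of named genes, 762 kept their direction and side of the threshold, 101 lost their call, 3 gained one and 13 changed sign. The sign changes all fell on genes without a call. The locus hbs1l was at -0.00258 by library size and -0.00536 without a filter, and cyp17a1 at -0.00601 in thinned counts. Without 1 library hbs1l ranged over -0.15 to 0.22, cyp17a1 over -0.16 to 0.32, cyp11a1 over -0.097 to 0.70, cd74a over -0.084 to 0.77, cyp19a1 over -1.07 to 0.24, cd74b over -0.74 to 0.22 and kdrl over -0.12 to 0.54. The cause of these shifts was not tested. The shallowest of the 12 wild-type O4 and O3 libraries held 2434791 reads on genes, which limits calls near the filter.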

Other observations

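Some genes were called in rRNA-depleted RNA and not in polyA+ RNA, and they are given as values chosen after they were seen. Of the 51 genes lower in O4 in rRNA-depleted RNA, 50 were tested in polyA+ RNA and 49 had a log2 fold change below 0 there, and of the 123 genes higher in O4, 117 were tested in polyA+ RNA and 117 lay above 0. The transcription factor gene creb3l3b (ENSDARG00000090903), which did not reach the level filter in polyA+ RNA, had 16.4, 10.96 and 9.45 CPM in the rRNA-depleted O4 libraries, against 0.102, 0.620 and 0 CPM in the O3 libraries (edgeR adjusted p = 0.00274). The unconventional myosin gene myo7a (ENSDARG00000099871) had 3.14, 5.48 and 6.52 CPM in the rRNA-depleted O4 libraries, against 24.2, 23.5 and 35.6 CPM in the O3 libraries (log2 fold change -2.40, edgeR adjusted p = 0.0163), and its log2 fold change in polyA+ RNA was -1.78 (edgeR adjusted p = 0.0737). The laminin gene lama1 (ENSDARG00000102277), of the basement membrane like col4a2, was at -1.19 in rRNA-depleted RNA (edgeR adjusted p = 0.0189) and at -1.21 in polyA+ RNA (edgeR adjusted p = 0.0701).

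A gene without a symbol, ENSDARG00000115819, had 1.105, 1.86 and 2.28 CPM in the polyA+ O4 libraries, against 1.82, 2.12 and 378 CPM in the O3 libraries, where replicate 3 stood apart, and was not called (edgeR adjusted p = 0.254).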
